A study of Mus musculus with 2 samples.

Results

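The major histocompatibility region of the mouse, called H2, was described here in liver DNA at single CpG cytosines. Members were the CpG cytosines on chromosome 17 between positions 33900000 and 37300000 (mm10) that were read at least 10 times in both libraries. The range held 6419 such cytosines out of 1603296 on the 19 autosomes. They were 42.5% of the 15108 cytosines of the range that were listed in either library. Methylation was measured by reduced representation bisulfite sequencing (RRBS), in which DNA is cut at short CpG-containing sites, bisulfite turns unmethylated cytosine into a base read as T, and the share of reads still showing C is the methylation level. The study made 1 library from the liver of 12-week-old CD-1 mice that had gone without food for 12 hr (fasted), and 1 from untreated CD-1 mice of the same age (control). CD-1 is an outbred stock, so its H2 haplotypes can differ from the mm10 sequence to which reads were mapped, and variants were not analysed here. The number of mice behind each library is not given in the sources used here. With 1 library in each group there was no replicate check, and every test below compares 2 libraries, not 2 conditions. The labelled tissue could not be checked against marker genes, because no expression was measured.

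The region holds the genes that present peptides to T cells, and it is known for its many duplicated and variable genes. The classical class I chains, of H2-K1 and H2-D1, show peptides from inside the cell and are made in most nucleated cells, hepatocytes included. The Q, T and M genes encode related class I chains. Class II chains show peptides taken up from outside and are made mainly by dendritic cells, macrophages and B cells, which are a minority in liver. Between them lie the class III genes, which encode complement components, tumour necrosis factor, heat shock proteins and many proteins with no role in antigen presentation.

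Over all chromosomes the fasted library listed 4110421 cytosines with 51276705 reads over them and the control library 4111027 with 49253627, each read being counted at every cytosine that it spans. In the H2 range the median cytosine had 20 reads in the fasted library and 19 in the control library. At 20 reads, a level has a counting error of several percentage points, and reads were amplified without molecular identifiers, so all intervals cover counting error only.

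The promoters below show which CpGs RRBS could read in genes of each class. Each runs 5′ to 3′ on the gene's own strand from 250 bases before to 50 bases after the start, from RefSeq on GRCm38.p6 (mm10). Capitals mark the CpGs at which at least 1 strand was read 10 times or more in both libraries. H2-K1 lies at chr17:34000284-34000583 on the minus strand and H2-D1 at chr17:35262844-35263143 on the plus strand. H2-Q10, a class I gene of the Q group known as a liver-secreted protein, lies at chr17:35469839-35470138 on the plus strand. The class II genes shown are H2-Oa, at chr17:34092129-34092428 on the plus strand, and H2-Aa, at chr17:34287774-34288073 on the minus strand. The class III genes are Apom, which encodes apolipoprotein M, at chr17:35131752-35132051 on the minus strand, and Lta, which encodes lymphotoxin alpha, at chr17:35205302-35205601 on the minus strand.
H2-K1: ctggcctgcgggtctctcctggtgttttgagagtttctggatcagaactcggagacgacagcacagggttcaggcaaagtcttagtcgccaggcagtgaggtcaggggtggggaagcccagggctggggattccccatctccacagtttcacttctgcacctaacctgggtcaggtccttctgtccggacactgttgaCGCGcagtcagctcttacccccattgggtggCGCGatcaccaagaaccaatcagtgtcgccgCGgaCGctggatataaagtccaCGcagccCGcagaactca
H2-D1: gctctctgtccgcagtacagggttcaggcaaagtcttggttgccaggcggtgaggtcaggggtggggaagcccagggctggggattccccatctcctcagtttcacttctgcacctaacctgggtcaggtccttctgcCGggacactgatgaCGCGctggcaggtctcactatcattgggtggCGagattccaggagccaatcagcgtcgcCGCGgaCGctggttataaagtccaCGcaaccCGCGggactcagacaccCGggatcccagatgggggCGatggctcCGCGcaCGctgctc
H2-Q10: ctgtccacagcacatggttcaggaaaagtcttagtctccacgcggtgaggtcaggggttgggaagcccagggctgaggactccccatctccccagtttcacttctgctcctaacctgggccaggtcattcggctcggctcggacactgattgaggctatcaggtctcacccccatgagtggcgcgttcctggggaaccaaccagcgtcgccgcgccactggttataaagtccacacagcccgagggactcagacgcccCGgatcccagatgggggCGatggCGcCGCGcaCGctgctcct
H2-Oa: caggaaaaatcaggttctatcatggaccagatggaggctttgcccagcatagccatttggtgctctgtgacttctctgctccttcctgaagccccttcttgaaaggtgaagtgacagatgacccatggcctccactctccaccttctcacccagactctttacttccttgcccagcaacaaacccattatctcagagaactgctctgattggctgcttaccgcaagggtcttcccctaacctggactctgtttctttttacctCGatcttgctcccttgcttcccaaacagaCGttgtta
H2-Aa: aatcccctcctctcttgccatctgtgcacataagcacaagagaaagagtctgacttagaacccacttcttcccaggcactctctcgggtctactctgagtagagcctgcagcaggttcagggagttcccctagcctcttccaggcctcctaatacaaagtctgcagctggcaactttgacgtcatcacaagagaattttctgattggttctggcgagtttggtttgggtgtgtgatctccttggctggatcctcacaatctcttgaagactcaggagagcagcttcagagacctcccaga
Apom: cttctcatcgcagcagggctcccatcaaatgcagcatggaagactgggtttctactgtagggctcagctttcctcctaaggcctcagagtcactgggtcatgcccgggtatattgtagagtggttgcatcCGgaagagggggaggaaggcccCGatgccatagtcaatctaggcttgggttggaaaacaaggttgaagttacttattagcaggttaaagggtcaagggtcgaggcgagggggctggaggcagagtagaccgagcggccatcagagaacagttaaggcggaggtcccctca
Lta: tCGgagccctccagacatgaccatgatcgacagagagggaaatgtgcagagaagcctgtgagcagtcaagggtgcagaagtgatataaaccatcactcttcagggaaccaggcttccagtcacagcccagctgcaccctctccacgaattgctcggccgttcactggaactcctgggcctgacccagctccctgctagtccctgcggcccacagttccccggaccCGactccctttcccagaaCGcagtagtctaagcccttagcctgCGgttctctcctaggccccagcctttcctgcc

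The H2-D1 promoter had 19 CpGs and 15 of them were measured, at a mean level of 0.354% in the fasted library and 0.679% in the control library. In H2-K1, 8 of 15 CpGs were measured, at 0% in the fasted library and 0.625% in the control library. In H2-Q10, 6 of 19 were measured, at 1.24% in the fasted library and 2.05% in the control library. The classical class I promoters and H2-Q10 were thus rich in CpGs and almost free of methylation in both libraries. H2-Oa had 3 CpGs, of which 2 were measured, and H2-Aa had 3 with 0 measured. The Lta promoter, with 4 of 10 CpGs measured, was highly methylated in both, at 77.1% in the fasted library and 77.7% in the control library. The 2 measured CpGs of the Apom promoter had 26.2% in the fasted library and 14.7% in the control library.

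Measured promoters held the cut sites of the assay more often than the others. Of the 175 promoters of the range in the RefSeq table, 97 had a measured gene window, meaning at least 5 cytosines from 1000 bp before to 500 bp after the start. The MspI site CCGG lay in 90.7% of the 97 measured promoters and in 20.5% of the other 78, against 53.1% of 25748 autosomal promoters, 1 per gene. This background, called all promoters below, took the entry lowest on the chromosome for each gene. Range promoters instead took the start of the gene window where it was measured, so the sets were not chosen quite alike. The TaqαI site TCGA lay in 27.8% of the measured and 16.7% of the unmeasured promoters, against 22.0% of all. At least 1 of these sites, which read the same on both strands, lay in 93.8% of measured and 34.6% of unmeasured promoters. Sites were searched only in the 300 promoter bases, not in the whole gene window. CpG content went the same way, with 47 of 47 promoters measured at 20 or more CpGs and 3 of 58 at fewer than 5. Cut sites and CpG content were not separated. Class II promoters had a median of 3 CpGs, and 1 of 8 was measured. M promoters had a median of 2 CpGs with 2 of 11 measured, T promoters 5 with 1 of 4, and Q promoters 11 with 5 of 5. CpG-poor promoters of class II, T and M genes were therefore mostly outside what these libraries could show. The inverted CCAAT box ATTGG, searched on both strands, stood in 26 of 30 H2 promoters (86.7%), against 37.7% of all promoters. It is the letter core of the Y box of class I and class II promoters, and a match is only a description. A strict pattern like an interferon response element, TTTC repeated after any 2 bases, stood on either strand in H2-T22 and H2-T23 and so in 2 of 30 H2 promoters (6.67%), against 3.53% of all promoters. Near matches were not counted, such as TTTCACTTCT in the printed promoters of H2-K1, H2-D1 and H2-Q10. A promoter without a match can therefore still hold such an element. ATTGG and the cut sites can overlap by at most 1 base.

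Methylation of the H2 range was low and almost the same in both libraries. The mean level over its 6419 cytosines was 23.0% in the fasted library and 23.1% in the control library, against 35.5% in the fasted library and 35.4% in the control library over the autosomes. The mean difference, fasted minus control, was -0.0961 percentage points, with a 95% counting interval from -0.294 to 0.102. A level under 10% was found at 66.4% of cytosines in the fasted library and at 65.3% in the control library. A level of 80% or more was found at 15.7% in the fasted library and 16.0% in the control library. Of all members, 1659 were higher in the fasted library, 1645 were lower and 3115 were equal. The share of cytosines near gene starts was not compared between the range and the autosomes, so their mean levels may rest on unlike sets of sites.

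The range was divided into 7 stretches by landmark genes, and the mean levels of their measured cytosines differed far more than the libraries did. Cytosines near gene starts were far lower than distant ones, as given below. The share of such cytosines in each stretch was not taken into account, so the order below ranks the cytosines read and not whole stretches. The stretch of H2-D1 and the Q genes had the lowest level, 11.9% in the fasted library and 12.8% in the control library over 505 cytosines. The K end, from the range start to before H2-Oa, had 18.1% in the fasted library and 17.6% in the control library over 797 cytosines. The class II stretch, from H2-Oa to before Notch4, had 22.3% in the fasted library and 22.8% in the control library over 584 cytosines. The T stretch was thinly read, with 74 cytosines or 3.96 per 10 kb, against 41.4 per 10 kb at the K end. Its level was 22.9% in the fasted library and 23.1% in the control library. The interval between the Q and T genes, which holds no H2 gene, had 23.7% in the fasted library and 23.5% in the control library over 1212 cytosines. Class III, the largest stretch with 2436 cytosines, had 24.7% in the fasted library and 25.1% in the control library. The M stretch, with the M genes and olfactory receptor genes, was highest, at 29.0% in the fasted library and 28.5% in the control library over 811 cytosines.

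The differences between libraries stayed under 1 point in all 7 stretches. The fasted library was lower in the D and Q stretch, with a mean difference of -0.817 points (interval -1.32 to -0.314). Class III had a mean difference of -0.376 (interval -0.719 to -0.033), but weighting each read the same turned it to 0.593. The K end had 0.531 (interval 0.045 to 1.02). Its difference was 0.234 at a minimum of 5 reads, 0.655 at a minimum of 20 reads and 0.525 with each read weighed the same. The intervals of the class II, Q to T, T and M stretches included 0. Over all autosomes the mean difference was 0.0808, with an interval from 0.067 to 0.0946.

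**Figure D1:**
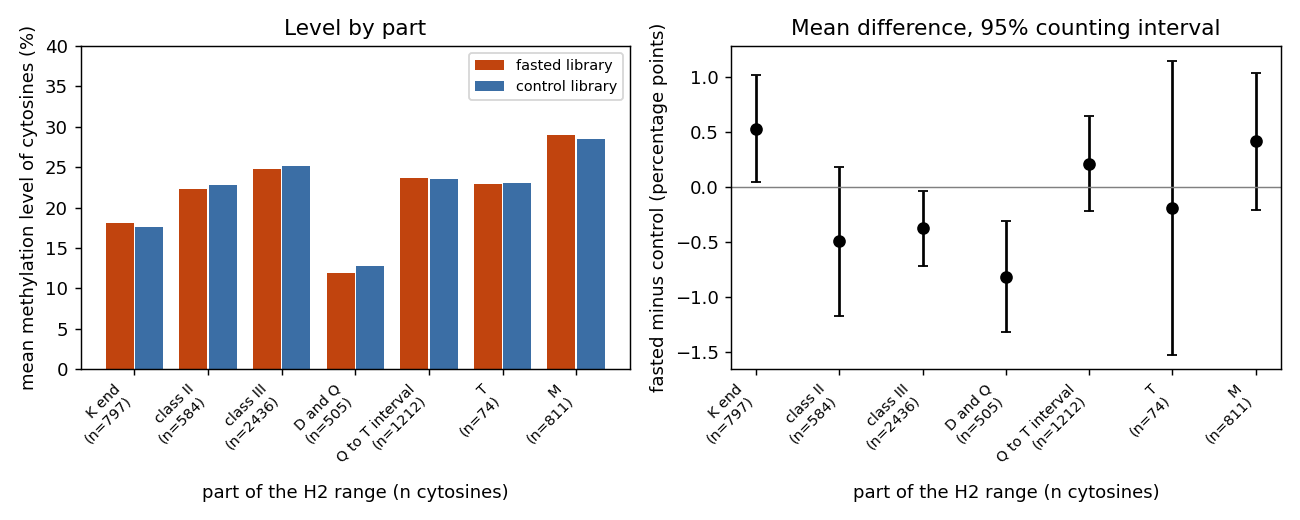
Mean methylation level (%) of the cytosines of 7 stretches of the H2 range, bars, fasted left of control, and the mean difference in percentage points with its 95% counting interval, points. The D and Q stretch is lowest at 11.9% in the fasted library and 12.8% in the control library, the M stretch is highest, and differences stay within 1 point of 0.

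The level was lowest around gene starts in both libraries. Within 500 bp of the nearest protein-coding gene start, 3000 cytosines averaged 3.35% in the fasted library and 3.27% in the control library. It was highest from 5000 to 10000 bp after the start, at 61.3% in the fasted library and 61.6% in the control library over 324 cytosines. Beyond 10000 bp it was lower again, at 45.1% in the fasted library and 44.5% in the control library after the start, and at 32.5% in the fasted library and 33.0% in the control library before it. The bin from 1000 to 2000 bp after the start stood apart, with 36.7% in the fasted library and 38.7% in the control library over 522 cytosines. Its mean difference was -1.99 (interval -2.92 to -1.07), and 26 of its 42 genes were lower in the fasted library and 15 higher. Tnxb, which encodes the matrix protein tenascin XB, gave 122 of these cytosines, at 15.9% in the fasted library and 20.04% in the control library. Without Tnxb the bin's mean difference was -1.33 (interval -2.36 to -0.293). This bin was 1 of 12 and was singled out after its values were seen.

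**Figure D2:**
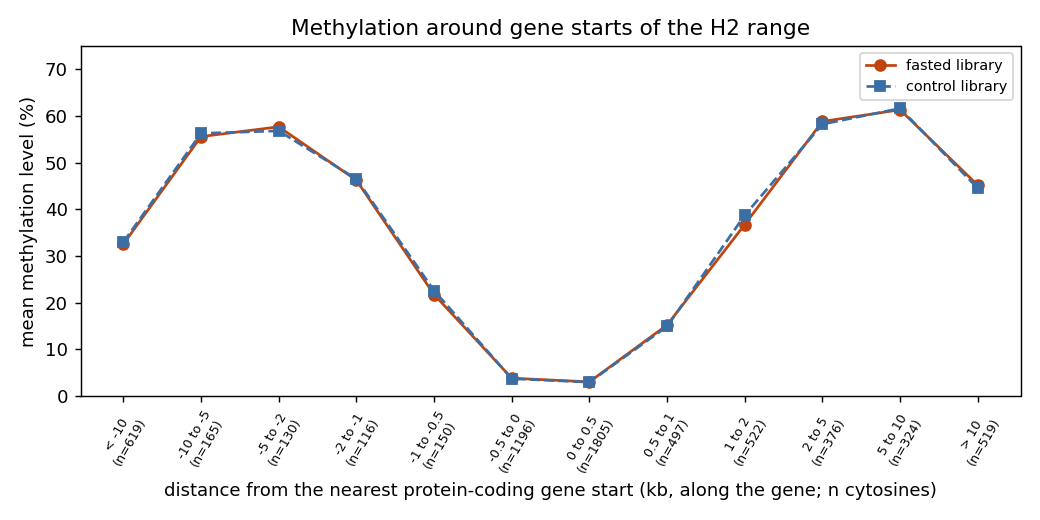
Mean methylation level (%) of the cytosines of the H2 range by distance from the nearest protein-coding gene start (kb, along the gene), fasted as circles and control as squares. Both lines are lowest within 500 bp of the start (3.35% in the fasted library and 3.27% in the control library), and the bin from 1000 to 2000 bp after it has 36.7% in the fasted library and 38.7% in the control library.

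No gene start in the range passed the test for a difference between the libraries. Gene windows were called at an adjusted p under 0.05 (two-sided Fisher's exact test on summed reads, Benjamini-Hochberg over all 17552 windows of the autosomes) and a difference of at least 10 points. Over the autosomes 221 windows passed, or 1.26%, with 0.632% higher in the fasted library and 0.627% lower, and in the range 0 of 130 did, which allows a share of up to 2.31%. At an unadjusted p under 0.05 there were 27 of 130 (20.8%), against 18.8% over the autosomes. At an adjusted p under 0.05 with no minimum difference there were 12 (9.23%), against 6.59%. Neighbouring cytosines share molecules, so these p-values are too small. Windows of neighbouring genes can also hold the same cytosines, as those of Ring1, Mir219a-1 and Mir219c do. Among the 12, Daxx overlaps BC051226 and Rps18 overlaps Vps52. The 130 windows are therefore not all separate values, and the limit of 2.31% is too narrow. The 130 windows comprised 97 placed at annotated starts and 33 placed at a gene end where no start was given. Their median level was 1.38% in the fasted library and 0.988% in the control library, and 94 of 130 had under 5% in both. Over the autosomes the median was 1.30% in the fasted library and 1.20% in the control library. There, 12547 of 17552 windows had under 5% in both, so low gene windows were not particular to the range.

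The 2 classical class I genes were unmethylated at their starts, and 0 of 2 were called. H2-K1 had 2 methylated of 495 reads in the fasted library and 16 of 562 in the control library, a mean level of 0.227% in the fasted library and 2.23% in the control library over 20 cytosines (Fisher's exact test, adjusted p = 0.0321). Its difference of -2.01 points was below the 10 needed, and with every read count halved the adjusted p was 1. H2-D1 was covered best of the H2 genes, with 78 cytosines, and had 20 methylated of 4196 reads in the fasted library and 12 of 3664 in the control library. Its level was 0.579% in the fasted library and 0.330% in the control library (Fisher's exact test, adjusted p = 0.757). Inside H2-D1, from 35263094 to 35267497, the cytosine 618 bp after the start had 0% in both libraries, and the next measured one, 1308 bp in, had 13.6% in the fasted library and 10% in the control library. The cytosine 1323 bp in had 11 of 22 reads methylated (50%) in the fasted library and 18 of 40 (45%) in the control library. At 1514 bp the level was 92% (23 of 25 reads) in the fasted library and 84.6% (11 of 13) in the control library. Both libraries were thus free of methylation near the start and methylated deeper in the gene. H2-K2, a transcribed class I pseudogene at the K end, had 0.405% in the fasted library and 0.308% in the control library around its measured end.

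All 7 measured Q windows were also low, and 0 of 7 were called. Those of H2-Q1 and H2-Q3 were placed at a gene end. H2-Q1 had the highest level and the most reads, with 94 methylated of 3186 in the fasted library and 154 of 3100 in the control library. Its mean level over 71 cytosines was 3.21% in the fasted library and 5.41% in the control library, with 22 cytosines higher and 37 lower (Fisher's exact test, adjusted p = 0.00229, under the 10 points needed). This H2-Q1 difference gave an adjusted p of 0.177 when every read count was halved. H2-Q2 had 0.853% in the fasted library and 1.97% in the control library, and H2-Q7 had 0.455% in the fasted library and 1.60% in the control library. H2-Q3, H2-Q4, H2-Q6 and H2-Q10 lay between 0.420% and 1.64% in the fasted library and between 0.397% and 1.497% in the control library. The Q genes, H2-K1 and H2-D1 are related in sequence to different degrees. Of the 21 pairs of those with a promoter entry, H2-D1 and H2-Q10 were most alike, with 82.2% identical bases, and H2-K1 and H2-Q2 least, with 47.7%. How reads that match several copies were placed is not given in the sources used here, so the split of reads among these genes is uncertain.

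Inside the Q genes, H2-Q6 differed from the rest by a methylated stretch. Its 37 cytosines between 35424850 and 35430055 averaged 21.1% in the fasted library and 22.1% in the control library. The 10 cytosines from 918 to 973 bp after its low end ranged from 40% to 90% in the fasted library and from 38.5% to 100% in the control library. By contrast, the 61 cytosines inside H2-Q10 reached at most 8.33% in the fasted library and 7.14% in the control library, with means of 0.904% in the fasted library and 1.08% in the control library. H2-Q4 had 0.916% in the fasted library and 1.03% in the control library over 74 cytosines. H2-Q10 thus had no methylated cytosine cluster among those read in either library.

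**Figure D3:**
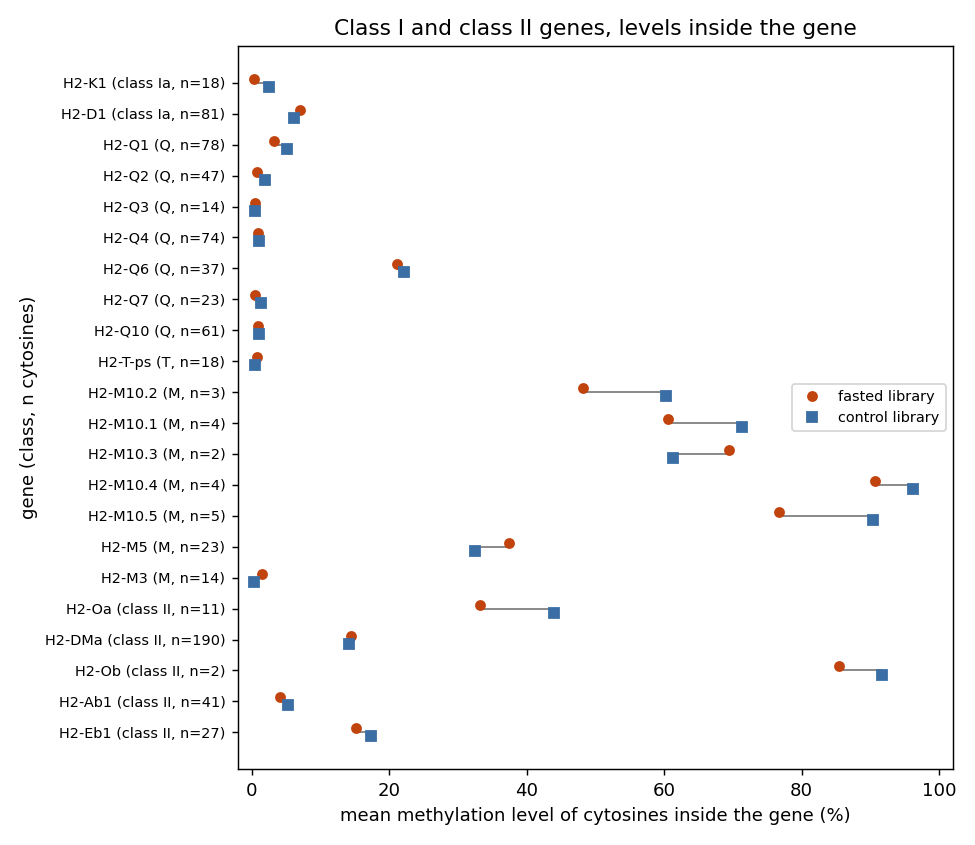
Mean methylation level (%) of the cytosines inside each H2 gene with at least 2 measured cytosines, fasted as circles drawn above control as squares, by class. Class I genes H2-K1, H2-D1 and most Q genes sit under 10% in both libraries, H2-Q6 near 20%, and the M10 genes between 48.1% and 96.2%.

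The T genes, non-classical class I genes, were almost out of reach. Of the 6 on the list, only H2-T-ps, annotated as protein-coding despite its name, had a measured window, with 0.777% in the fasted library and 0.471% in the control library over 17 cytosines, and 0 of 1 were called. H2-T22, whose product is a ligand of gamma delta T cells, and H2-T23, which encodes Qa-1, had 4 and 2 cytosines listed and 0 with enough reads. The class I pseudogene H2-Bl, in the same stretch, had 4.62% in the fasted library and 0% in the control library over 5 cytosines around its measured end (Fisher's exact test, adjusted p = 0.290).

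The M genes were read at different places, some at the start and others only inside the gene. H2-M3, whose product presents formylated peptides, had 1.53% in the fasted library and 0.311% in the control library over 14 cytosines. H2-M5 had 29.2% in the fasted library and 25.2% in the control library at its start over 6 cytosines, and its sign turned at a minimum of 5 reads, to -0.598 points. Neither of these 2 windows, of 14 M genes on the list, was called. The M10 genes, known from the vomeronasal organ, were read only inside the gene and at few cytosines. H2-M10.5 had 76.7% in the fasted library and 90.4% in the control library over 5 cytosines, all 5 lower in the fasted library. Its single cytosines had 12 to 15 reads in the fasted library and 14 to 16 in the control library, so each rests on few molecules. H2-M10.4 had 90.6% in the fasted library and 96.2% in the control library over 4 cytosines. H2-M10.2 had 48.1% in the fasted library and 60.3% in the control library over 3, and H2-M10.1 had 60.6% in the fasted library and 71.4% in the control library over 4. H2-M10.3, with 2 cytosines, went the other way, with 69.4% in the fasted library and 61.4% in the control library. The M10 genes with a value were thus methylated inside the gene in both libraries, and no M10 gene had more than 5 members. No M10 start was measured, so these levels cannot be set against that of the H2-M3 start.

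Of the 10 class II genes only H2-DMa, which helps load peptides onto class II molecules, had a measured start. All 16 of its cytosines there had 0% in both libraries, and 0 of 1 were called. Its start lies close to the CpG-rich start of Brd2, a reader of acetylated histones, which had 0.246% in the fasted library and 0.436% in the control library. H2-Oa, the alpha chain of the DO modulator made in B cells, had 3 measured cytosines at 2 CpGs close after its start. The cytosine 13 bp in had 1 methylated of 10 reads in the fasted library and 3 of 12 in the control library. At 42 bp the plus strand had 0 of 10 in the fasted library and 1 of 12 in the control library, and the minus strand 1 of 17 in the fasted library and 3 of 17 in the control library. Each of the 3 was lower in the fasted library by 1 or more methylated reads, and none passed the test (Fisher's exact test, adjusted p = 1 for each). Inside the gene H2-Oa averaged 33.2% in the fasted library and 43.9% in the control library over 11 cytosines, 3 higher and 8 lower (mean difference -10.7, interval -20.1 to -1.31). H2-Ob, the beta chain of the same modulator, had 85.4% in the fasted library and 91.7% in the control library over 2 cytosines.

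The genes of the classical E and A beta chains were read inside the gene at CpG clusters. H2-Eb1 had 27 cytosines at 15.1% in the fasted library and 17.3% in the control library, 7 higher and 20 lower (mean difference -2.19, interval -5.11 to 0.729). Its cluster 3830 to 3905 bp from the low end had at most 17.4% in the fasted library and 28.6% in the control library, whereas the cytosines 6304 to 8453 bp in had 73.7% to 84% in the fasted library and 80.8% to 94.1% in the control library. H2-Ab1 had 41 cytosines between 34263227 and 34269418, at 4.14% in the fasted library and 5.27% in the control library, 14 higher and 14 lower. At a minimum of 5 reads the window at the low end of H2-Ab1 had 7 cytosines, with 4.47% in the fasted library and 20.7% in the control library (Fisher's exact test, adjusted p = 0.0141), and at 10 reads too few remained for a window. H2-Aa, H2-Ea, H2-Eb2, H2-DMb1 and H2-DMb2 had 0 cytosines with enough reads.

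The single called cytosine of the range lay inside H2-Ab1, at position 34264901 on the minus strand, 1674 bp from the gene's low end. Cytosines were called at an adjusted p under 0.05 (two-sided Fisher's exact test, Benjamini-Hochberg over all 1603296) and a difference of at least 25 points. Over the autosomes 0.082% passed, with 0.0448% higher in the fasted library and 0.0372% lower, against 1 lower and 0 higher of 6419 members, or 0.0156%. It had 0 methylated of 48 reads in the fasted library, which allows up to 7.40% (upper Clopper-Pearson limit), and 12 of 42 in the control library (28.6%, exact 95% interval 15.7 to 44.6; adjusted p = 0.0449). Its partner on the plus strand had 2 of 52 reads in the fasted library (3.85%) and 4 of 61 in the control library (6.56%). The nearest minus-strand cytosines on either side had 4 of 48 and 0 of 48 in the fasted library, and 4 of 41 and 4 of 42 in the control library. Of these values, the one of the control library's minus strand at the called base stood apart. Reads at these positions came as 48 and 42, while the flanking cytosines of the same strand had 24 in the fasted library and 21 in the control library. The methylated counts at the called base were even too. How overlapping read mates were counted is not given in the sources used here. With every read count halved the adjusted p was 1, and with the strands merged the difference was -13.5 points and the adjusted p 0.239.

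**Figure D4:**
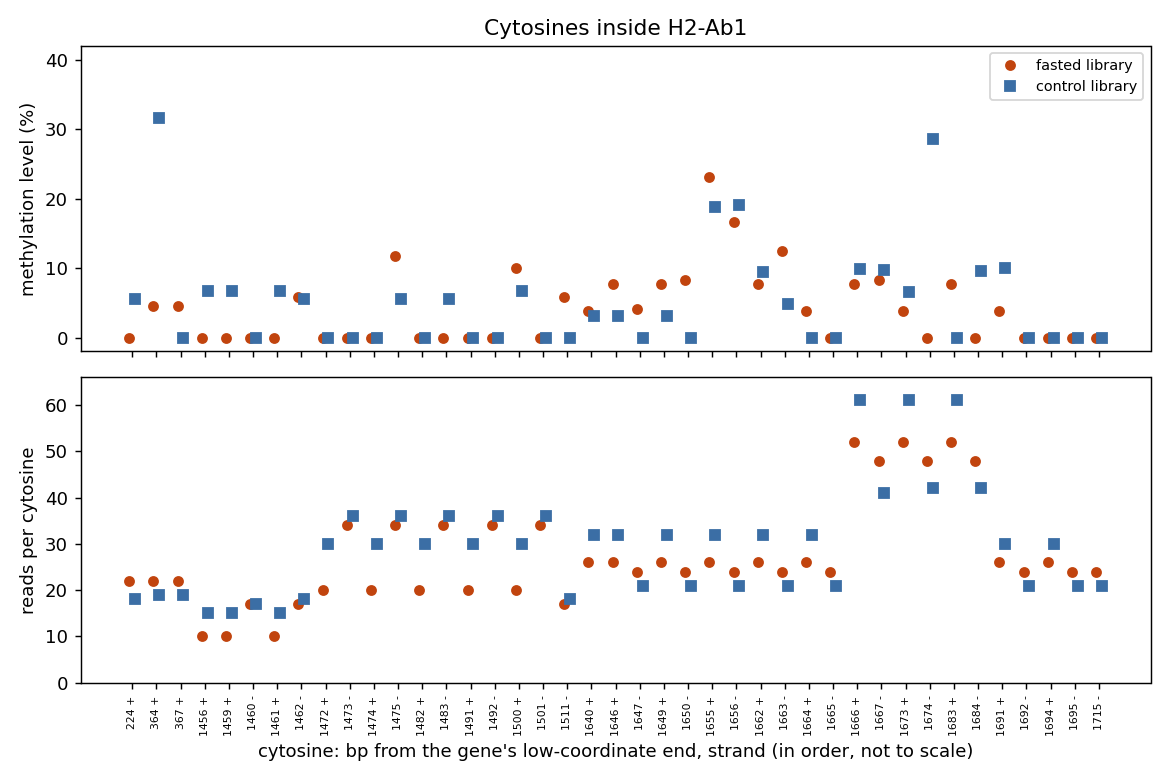
Methylation level (%) and reads of the 41 cytosines inside H2-Ab1, in order along the gene, fasted as circles and control as squares. The called cytosine, 1674 bp from the low end on the minus strand, has 0% in the fasted library and 28.6% in the control library, and reads there step up to 48 in the fasted library and 42 in the control library.

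The genes of the peptide loading machinery were low in their windows except Tapbp. Tap1 and Tap2, the peptide transporter, and Psmb8 and Psmb9, subunits of the immunoproteasome, lay between 0.226% and 4.48% in the fasted library and between 0% and 1.32% in the control library. The Tap2 window was placed at a gene end. Tap1 and Psmb9 are divergent neighbours whose windows overlap, so they are not separate values. Psmb8 had 16 methylated of 398 reads in the fasted library and 6 of 425 in the control library (Fisher's exact test, adjusted p = 0.193). Tapbp, which encodes tapasin, the bridge between class I chains and the transporter, had 100 methylated of 660 reads in the fasted library and 146 of 543 in the control library. The mean level of its 27 cytosines was 21.4% in the fasted library and 27.6% in the control library (Fisher's exact test, adjusted p = 8.24e-05). The difference of -6.18 points was below the 10 needed, 8 of its cytosines were lower and 1 higher, and it was -1.125 at a minimum of 20 reads. With reads thinned to equal depth the difference was -6.06 and the adjusted p 0.551 (Fisher's exact test). With every read count halved the adjusted p was 0.0418 by the same test. The 68 cytosines inside Tapbp, from its start at 33919478, had 0.883% in the fasted library and 0.686% in the control library, at most 10.5% in the fasted library and 7.69% in the control library. The methylated cytosines of the window therefore lay before the start, where the Zbtb22 gene ends at 33919325. So 0 of 5 peptide loading windows were called.

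In class III, no window of the complement genes was measured, and their bodies were partly methylated. C4a had 46.8% in the fasted library and 48.2% in the control library over 12 cytosines, and C4b, its near copy, 46.0% in the fasted library and 42.8% in the control library over 8. Reads of these 2 genes may be split between copies. Cfb, complement factor B, had 24.7% in the fasted library and 16.9% in the control library over 13 cytosines, and C2 had 19.9% in the fasted library and 20.1% in the control library over 11.

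Of the cytokine and myeloid genes, Lta and Ltb had methylated cytosines in their start windows, and 0 of 3 measured windows were called. Lta had 72.7% in the fasted library and 78.1% in the control library over 8 cytosines (Fisher's exact test, adjusted p = 0.497). Ltb, lymphotoxin beta, was the only one of the 130 windows with a difference of at least 10 points, with 22 methylated of 98 reads in the fasted library and 42 of 117 in the control library. Over its 5 cytosines that was 21.6% in the fasted library and 36.6% in the control library (Fisher's exact test, adjusted p = 0.220). Inside Ltb, 43 cytosines had 3.37% in the fasted library and 3.45% in the control library. Nfkbil1, a gene of an I kappa B-like protein beside them, had 1.13% in the fasted library and 0.940% in the control library. Inside Tnf, the tumour necrosis factor gene, 7 cytosines averaged 62.5% in the fasted library and 50.6% in the control library, 6 of them higher (mean difference 11.9, interval -2.59 to 26.4). The myeloid gene Aif1 had 77.8% in the fasted library and 84.8% in the control library over 4 cytosines.

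The heat shock genes were mostly free of methylation at their starts, and 0 of 3 windows were called. Hspa1a and Hspa1l, which are divergent and share all 21 cytosines of their windows, had 8.60% in the fasted library and 12.3% in the control library (Fisher's exact test, adjusted p = 0.248). Hspa1b, a near copy of Hspa1a, had 3.24% in the fasted library and 3.97% in the control library over 9 cytosines. Inside Hspa1a, 18 cytosines averaged 11.7% in the fasted library and 20.2% in the control library, 2 higher and 13 lower (mean difference -8.49, interval -13.6 to -3.38). The Hspa1b body had 15.2% in the fasted library and 19.96% in the control library (mean difference -4.74, interval -11.9 to 2.42). Tnxb, the gene with the most members of any in class III, had 32.5% in the fasted library and 36.2% in the control library over 212 cytosines, 77 higher and 129 lower (mean difference -3.70, interval -5.41 to -2.003). The Tnxb and Hspa1a values were singled out after they were seen, and neither gene held a called cytosine.

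All 12 genes of the chromatin and transcription list had measured windows, and 0 of 12 were called. Apart from Pou5f1, the members inside the range lay under 10% in both libraries, among them Ring1, a Polycomb subunit, with 0.246% in the fasted library and 0.217% in the control library, and Ehmt2, a histone H3 lysine methyltransferase, with 2.07% in the fasted library and 0% in the control library. Zbtb22, a zinc finger gene, had 5.21% in the fasted library and 0% in the control library over 6 cytosines (Fisher's exact test, adjusted p = 0.0681). Pou5f1, the pluripotency factor that is silent in adult liver, was the methylated member, with 46.7% in the fasted library and 38.5% in the control library over 8 cytosines (Fisher's exact test, adjusted p = 0.578). The 2 measured TRIM genes, Trim26 and Trim39, which encode ubiquitin ligases, stayed under 1% in both, and 0 of 2 were called. H2-Ke6, which despite its name encodes a hydroxysteroid dehydrogenase, had 3.43% in the fasted library and 1.01% in the control library (Fisher's exact test, adjusted p = 0.0215, difference 2.42 points). No start window was measured among 6 butyrophilin-like and 15 olfactory receptor genes. The butyrophilin-like bodies were methylated, from 65% to 89.5% in the fasted library and from 71.0% to 90% in the control library.

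In windows of 1000 bp, 4 were called, all higher in the fasted library. Windows needed at least 3 cytosines, an adjusted p under 0.05 (two-sided Fisher's exact test, Benjamini-Hochberg over 124884 windows) and a difference of at least 10 points. Over the autosomes 2% were called, 1.06% higher and 0.942% lower, against 4 higher and 0 lower of 406 in the range (0.985%). At an unadjusted p under 0.05 there were 51 of 406 (12.6%), against 12.7%. The window at chr17:35131001-35132000, which spans the start of Apom, a liver gene whose product travels in high-density lipoprotein, rested on most cytosines. It had 62 methylated of 239 reads in the fasted library and 23 of 218 in the control library, a mean of 25.5% in the fasted library and 11.7% in the control library over 10 cytosines (Fisher's exact test, adjusted p = 0.00238). Of the 10, 8 were higher and 2 lower in the fasted library. The largest gap was at 35131195 on the minus strand, with 10 of 28 reads in the fasted library (35.7%) and 2 of 23 in the control library (8.70%). Of its cytosines, 8 lie inside Apom in a short cluster from 35131185 to 35131239, outside the promoter printed above. The other 2, at 35131899 and 35131921, are the capitals in that promoter, and no member lies between the groups. The gene window of Apom held too few cytosines to be measured, so the call rests mainly on the cluster inside the gene and not on the start.

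The other windows rested on 3 to 6 cytosines. The window at chr17:35486001-35487000, 11438 bp from H2-Q10, had the widest gap, with 50 methylated of 65 reads in the fasted library and 16 of 46 in the control library. Its 3 cytosines lie within 27 bp and averaged 77.5% in the fasted library and 37.1% in the control library (Fisher's exact test, adjusted p = 0.00151). The window at chr17:34382001-34383000, inside Btnl1, a butyrophilin-like gene known from gut epithelium, had 3 cytosines with 11 reads each in the fasted library and 17 each in the control library. They averaged 90.9% in the fasted library and 58.8% in the control library (Fisher's exact test, adjusted p = 0.0481). The window at chr17:35603001-35604000, 7427 bp from the predicted gene Gm41577, had 6 cytosines at 83.5% in the fasted library and 64.7% in the control library, all 6 higher (Fisher's exact test, adjusted p = 0.0232). At a minimum of 5 reads its difference was 7.45 points and its call was lost (Fisher's exact test, adjusted p = 0.213, and 0.0166 to 1 over its alternatives). All 4 calls were lost when every read count was halved and when the summed reads were divided by the number of cytosines. Dividing left each window with about the reads of 1 cytosine, so that loss cannot tell a missing difference from too few reads. Of the 406 windows, 284 (69.95%) differed by less than 5 points, against 64.8% over the autosomes.

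**Figure D5:**
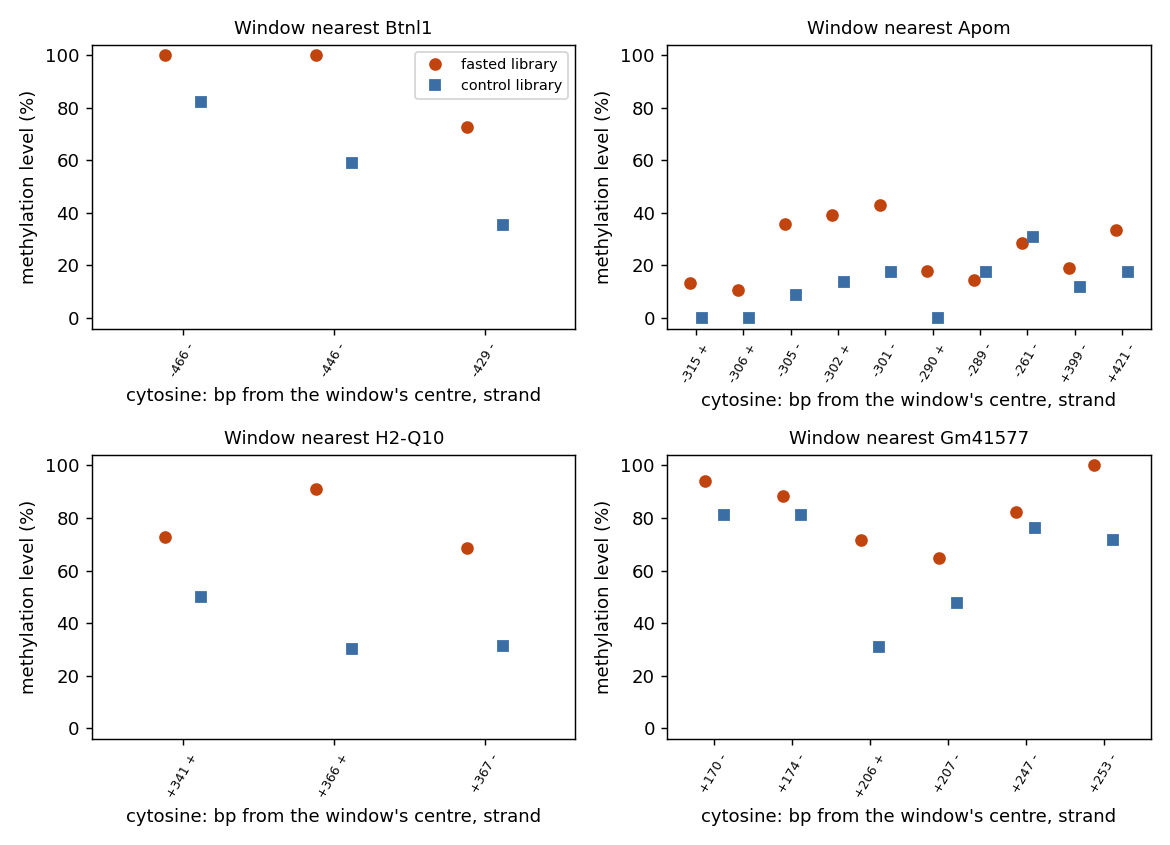
Methylation level (%) at each cytosine of the 4 called 1000 bp windows, by distance from the window's centre (bp) and strand, fasted as circles left of control as squares. All cytosines of the windows nearest Btnl1, H2-Q10 and Gm41577 are higher in the fasted library, and 8 of 10 in the Apom window.

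No cytosine of the range switched fully between the libraries. A switch was a level of at most 10% in one library and at least 90% in the other. Over the autosomes 367 cytosines switched, or 0.0229%, against 0 of 6419, which allows up to 0.0467%, so a share like that of the autosomes is within the limit. At a difference of at least 25 points there were 196 members (3.05%), against 4.13% over the autosomes. At an unadjusted p under 0.05 by Fisher's exact test there were 122 (1.90%), against 2.16%. The nearest to a switch was at 36957322 on the plus strand inside Znrd1, which encodes an RNA polymerase I subunit. It had 2 methylated of 12 reads in the fasted library (16.7%) and 10 of 10 in the control library (100%), a difference of -83.3 points (Fisher's exact test, adjusted p = 0.0905). Its partner on the minus strand was read 6 times in the fasted library and 2 times in the control library, too few for a member. The widest gap in the other direction was at 35486866 on the plus strand, in the window near H2-Q10, with 20 of 22 reads in the fasted library (90.9%) and 6 of 20 in the control library (30%; Fisher's exact test, adjusted p = 0.0725). Its partner on the minus strand went the same way, with 22 of 32 in the fasted library and 5 of 16 in the control library. Inside B3galt4, a galactosyltransferase gene at the K end, the cytosine at 33951099 on the plus strand had 23 of 30 reads methylated in the fasted library and 8 of 29 in the control library. Its partner on the minus strand had 14 of 34 (41.2%) in the fasted library and 18 of 44 (40.9%) in the control library, without that gap. These cytosines were picked as the widest differences after their values were seen.

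Reads found in 1 library only were rare in the range. A fragment was a run of at least 2 neighbouring cytosines read 10 times or more in one library and not listed in the other. Of 7793 cytosines with 10 reads in the fasted library, 2 (0.0257%) were not listed in the control library, against 0.876% over the autosomes. Of 7227 in the control library, 1 (0.0138%) was not listed in the fasted library, against 0.781%. The 2 fasted cytosines formed the only fragment of the range, of 3269 over the autosomes, at chr17:34025250-34025254 on the minus strand at the K end, beside Ring1. Each was read 10 times in the fasted library and was unmethylated. In the control library there was no fragment in the range, of 2735 over the autosomes. Cytosines in such fragments were 0.645% of those read 10 times in the fasted library and 0.584% of those in the control library over the autosomes. The single control cytosine, at 36667335 on the minus strand in the M stretch, had 8 of 10 reads methylated. The fasted fragment thus stood exactly at the depth minimum.

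Antigen presentation genes outside the range also had low windows. Of 22 such genes, 19 had a measured window and 0 was called, against 1.26% of all 17552 windows of the autosomes. Their levels ran from 0% to 2.85% in the fasted library and from 0% to 1.07% in the control library. The median of all windows of the autosomes was 1.30% in the fasted library and 1.20% in the control library. B2m, the light chain of class I molecules, had 0.491% in the fasted library and 0.513% in the control library, and Nlrc5, the class I transactivator, had 0.764% in the fasted library and 0.417% in the control library. The widest gaps were at Rfxank, a regulator of class II promoters, with 2.85% in the fasted library and 0.877% in the control library, and at Psmb10, an immunoproteasome subunit, with 0.641% in the fasted library and 0% in the control library. Pdia3 had 28 methylated of 2972 reads in the fasted library and 11 of 3752 in the control library. Its adjusted p of 0.0152 (Fisher's exact test) was the lowest of the 19, at a difference of 0.363 points.

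The spread between strands gave a yardstick within each library. At 1897 CpGs read on both strands, the mean absolute gap between strands was 3.90 points in the fasted library and 3.74 in the control library. The mean absolute gap between the libraries was 3.82 points on the plus strand and 3.73 on the minus strand. On average, strands and libraries thus differed by about the same amount. The median gap between strands was 0 in the fasted library, so its mean rests on a minority of CpGs. Such means do not show whether single sites differ between the libraries. Even counts were more common than independent reads would give, mainly at deeply read cytosines. Among members with a level from 20% to 80% and 30 to 49 reads, total and methylated counts were both even at 61% of 100 in the fasted library and 71.3% of 80 in the control library, where independent reads would give 25%. Among those with 10 to 19 reads the shares were 31.7% of 565 in the fasted library and 33.8% of 653 in the control library. Over the autosomes they were 54.3% in the fasted library and 57.8% in the control library at 30 to 49 reads, and 29.4% in the fasted library and 29.9% in the control library at 10 to 19.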

How the data were processed

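RRBS of liver DNA was deposited for 1 fasted and 1 control library. Per the labels' protocols, DNA was cut with TaqαI and MspI, size selected, treated with bisulfite, amplified and sequenced (Illumina HiSeq). Tools named in the submitters' processing notes are Bismark 0.14.3, a bisulfite aligner, and bcl2fastq 1.8.4, with the build mm10. Alignment settings, duplicate handling, filters on cytosines and the counting of overlapping mates were not given in the sources used here. The deposited files list CpG cytosines by strand with a text field of methylated and total read counts and the percent methylated. The score deposited by the authors is the methylated fraction times 1000, rounded, within 0.5 of the value from the counts. The read counts were used here, strands kept apart, with no normalization. Positions count from 1.

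Single cytosines needed at least 10 reads in both libraries. Windows of 1000 bp needed at least 3 such cytosines, and gene windows, from 1000 bp before to 500 bp after a start, at least 5. Each was tested on methylated and unmethylated reads with Fisher's exact test, two-sided, and p-values were adjusted by Benjamini-Hochberg over all 19 autosomes. Mean levels weigh cytosines equally, while windows were tested on summed reads. Shares have exact 95% Clopper-Pearson intervals, and the intervals of mean differences take reads as independent. The limit for a count of 0 is 3 counts of the total. Gene starts and promoters come from the RefSeq tables of GRCm38.p6, gene spans from the same annotation, and exons and introns were not analysed here. All 17029 listed cytosines inside promoters of chromosome 17 were checked and lay at a CG. Promoter identity is identical bases over aligned columns of a pairwise global alignment with Biopython 1.88. Python 3.11.15, numpy 2.4.6, pandas 2.3.3, scipy 1.17.1, numba 0.67.0 and matplotlib 3.10.9 were used, and the tests were tested on simulated data.

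The members, stretches, gene lists and tests were chosen with earlier results of these data known. The genes named were every H2 gene with a measured window, the 2 members of each list with the widest difference, every called gene, window and switching cytosine, and the one-library fragments. Other genes and cytosines were named after their values were seen. The alternatives were other read minimums, halved read counts, equal depth by thinning, merged strands, other thresholds, window sizes and weights.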

Additional observations from a re-analysis of the deposited data

Results flagged for a closer look

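The fragment read in the fasted library only, at chr17:34025250-34025254 beside Ring1, was singled out because it is a signal in data that the level comparisons did not use. It had 20 reads over its 2 cytosines in the fasted library, 0 of them methylated, and was not listed in the control library. It was 1 of 3269 such fragments over the autosomes.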

How the results depend on the processing

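No paired analysis was possible because each group has 1 library. Leaving out a library was not possible for the same reason, and depth limits single cytosines most, since a member has a median of 20 reads in the fasted library and 19 in the control library.

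The called cytosine of H2-Ab1 left 0 lower calls at a minimum of 5 reads, with halved counts, at equal depth, with merged strands and at 40 points. There was 1 higher call at a minimum of 20 reads and with merged strands, at 35486866 near H2-Q10. Switching cytosines were 2 at a minimum of 5 reads (near Gm18733 and Gm18809, against 0.0321% over the autosomes) and 1 at limits of 20% and 80% (in Znrd1, against 0.0481%). Higher windows were 4 at a minimum of 5 reads, with the window near Gm41577 lost and 1 at H2-Pb gained, 1 at a minimum of 20 reads, 0 with halved counts, 0 with summed reads scaled down by cytosine number, and 2 at equal depth, with at least 5 cytosines or at 20 points. Lower windows were 2 at a minimum of 5 reads (at H2-Ab1 and Olfr91), and 1 at a minimum of 20 reads and with at least 5 cytosines (near Gm18734). Gene starts gave 1 lower call at a minimum of 5 reads (H2-Ab1, 4.47% in the fasted library and 20.7% in the control library over 7 cytosines), 1 lower with 2000 bp on each side (Gm18734) and 1 higher at equal depth (Gm33595). One-library fragments were 9 in the fasted library and 4 in the control library at 5 reads, 0 in the fasted library at 20 reads, and 5 in the fasted library and 3 in the control library when up to 2 reads were allowed in the other. The cause of these changes was not tested.

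The mean difference of the Q to T interval was -0.243 points at a minimum of 5 reads. Weighting reads equally gave 0.273 for the whole range and 0.593 for class III. Of 187 values of 28 named genes under the alternatives, 14 changed sign and 0 gained a call. At a minimum of 5 reads H2-M5 had -0.598. At 20 reads H2-Q10 had 0.513, H2-T-ps -0.284 and Trim39 -0.0507. With halved counts H2-Q4 had 0.204, H2-Q7 0.130 and Psmb8 -0.0311. At equal depth H2-K2 had -0.308, H2-Q10 0.102, H2-Q3 -0.0263 and H2-Q4 0.243. With 2000 bp on each side H2-Q4 had 0.0633, H2-Q6 -0.934 and Zbtb22 -0.266.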

Other observations

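Outside the H2 genes, most other gene windows of the range were also low, and a few were not. Of all 130 gene windows, 9 were above 50% in both libraries, against 2273 of 17552 over the autosomes. Among windows placed at a gene end, the pseudogene Gm19807 in the M stretch had 94.6% in the fasted library and 88.1% in the control library, the steroid 21-hydroxylase pseudogene Cyp21a2-ps had 86.8% in the fasted library and 91.8% in the control library, and the von Hippel-Lindau pseudogene Vhl-ps1 had 78.7% in the fasted library and 81.0% in the control library. Among windows placed at an annotated start, that of Cdsn, which encodes the skin protein corneodesmosin, had 71.0% in the fasted library and 68.0% in the control library, and that of Col11a2, a cartilage collagen gene, had 57.5% in the fasted library and 56.4% in the control library. Gm33595 came nearest to a called start, with 56.6% in the fasted library and 47.3% in the control library over 30 cytosines (Fisher's exact test, adjusted p = 0.0450, difference 9.29 points). These genes were named after their values were seen.

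Promoter CpG content went with the level in the same way in both libraries. All 47 promoters of the range with 20 or more CpGs had a measured window, at a median of 0.824% in the fasted library and 0.616% in the control library. Of 40 promoters with 10 to 19 CpGs, 34 were measured, at a median of 2.45% in the fasted library and 1.92% in the control library. Of 30 with 5 to 9 CpGs, 13 were measured, at a median of 18.0% in the fasted library and 17.2% in the control library. Of 58 with fewer than 5, 3 were measured. The class II gene with the most members, H2-DMa, whose annotated span of 19409 bp overlaps the start of Brd2, had 14.4% in the fasted library and 14.2% in the control library over 190 cytosines.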
